A study of Saccharomyces cerevisiae with 40 samples.

Results

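This account describes 46 budding yeast genes known as targets of the general stress response, across 40 RNA-seq libraries. The members were chosen by name, as known targets of the transcription factors Msn2 and Msn4. The rule uses no measured value, but the choice was made with earlier results of these data known. All 46 were found among the 6462 named genes of the table. All 46 also had a mean of at least 5 normalized reads over the 40 libraries, so each one was among the 6103 genes tested.

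Cultures of Saccharomyces cerevisiae were given an excess of 1 of 9 amino acids or were left as controls, and poly(A) messenger RNA was sequenced. The labels give 10 groups of 4 libraries, named here as they are there: Ctrl for the controls, and Ala, Gly, Val, Ile, Thr, Phe, Trp, Cys and Met for the amino acids alanine, glycine, valine, isoleucine, threonine, phenylalanine, tryptophan, cysteine and methionine. Each group holds 1 library from each of the batches A, B, C and D, and a library is called by its group and letter, such as Gly C. The labels state no strain, genotype, medium, dose or time of feeding, nor whether the 4 libraries came from separate cultures, so the tests measure the spread between these samples.

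Msn2 and Msn4 are zinc finger activators that enter the nucleus when cells meet heat, oxidants, osmotic shock, starvation or slowed growth. Protein kinase A and the TOR pathway, both active in rich medium, keep them out of it. In the nucleus they bind the stress response element, whose core letters are AGGGG, or CCCCT on the other strand. Their targets encode protective proteins, antioxidant enzymes, carbohydrate and cofactor enzymes, and regulators that feed back on growth. The same targets are known to rise with a lower growth rate, so their levels follow the growth state of a culture as well as an added stress.

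The element can be read in the DNA before these genes. The windows shown are those of the 3 members with most copies, AIM17, DDR2 and YAK1 (3 each), of DCS2, the first by name of the 8 members with 2, and of HSP12, added after its values were seen because it had the largest rise. Each runs from 250 bases before the annotated start codon to 50 bases after its first position, 5′ to 3′ on the gene's own strand, in the RefSeq R64 reference. Capitals mark AGGGG or CCCCT. The deposited table names no genome build and holds no coordinates, so all positions are those of R64: AIM17 at chrVIII:65810-66109 (minus strand), DDR2 at chrXV:231706-232005 (minus), YAK1 at chrX:150341-150640 (minus), DCS2 at chrXV:657014-657313 (plus) and HSP12 at chrVI:107006-107305 (plus).
AIM17: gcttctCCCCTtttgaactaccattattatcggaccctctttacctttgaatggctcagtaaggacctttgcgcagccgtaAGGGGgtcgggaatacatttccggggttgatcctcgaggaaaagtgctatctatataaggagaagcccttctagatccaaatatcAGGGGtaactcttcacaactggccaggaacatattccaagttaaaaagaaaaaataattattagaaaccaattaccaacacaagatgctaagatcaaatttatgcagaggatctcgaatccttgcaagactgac
DDR2: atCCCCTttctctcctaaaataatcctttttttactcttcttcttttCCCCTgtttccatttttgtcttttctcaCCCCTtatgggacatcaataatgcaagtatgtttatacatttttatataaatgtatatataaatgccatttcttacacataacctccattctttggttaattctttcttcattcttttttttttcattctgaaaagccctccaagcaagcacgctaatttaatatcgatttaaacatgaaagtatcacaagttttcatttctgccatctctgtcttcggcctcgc
YAK1: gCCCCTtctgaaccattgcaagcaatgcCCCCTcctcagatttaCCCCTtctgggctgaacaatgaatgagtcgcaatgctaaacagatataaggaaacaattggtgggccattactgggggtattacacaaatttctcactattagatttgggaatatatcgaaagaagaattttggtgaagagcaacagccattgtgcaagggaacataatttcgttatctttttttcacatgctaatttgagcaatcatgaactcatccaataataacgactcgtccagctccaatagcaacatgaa
DCS2: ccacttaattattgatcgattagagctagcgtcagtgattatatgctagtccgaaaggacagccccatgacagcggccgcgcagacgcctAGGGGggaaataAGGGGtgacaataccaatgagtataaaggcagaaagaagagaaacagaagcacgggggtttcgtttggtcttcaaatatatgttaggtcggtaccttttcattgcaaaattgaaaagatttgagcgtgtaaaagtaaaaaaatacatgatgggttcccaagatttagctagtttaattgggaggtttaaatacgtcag
HSP12: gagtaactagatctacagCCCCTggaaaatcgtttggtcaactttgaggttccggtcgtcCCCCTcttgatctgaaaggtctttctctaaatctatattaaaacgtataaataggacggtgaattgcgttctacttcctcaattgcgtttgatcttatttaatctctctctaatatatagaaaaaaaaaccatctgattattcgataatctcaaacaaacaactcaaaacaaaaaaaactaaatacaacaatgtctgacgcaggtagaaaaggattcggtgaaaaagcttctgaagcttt

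At least 1 copy of these letters lay in the windows of 29 of the 46 members, or 63.0% (exact 95% interval 47.5 to 76.8%). Of all 6001 gene windows of the same length in R64, 1297 held one, or 21.6%. At least 2 copies lay in 11 member windows (23.9%), against 2.93% of all windows. In the 250 bases before the start alone, this held for 10 members (21.7%), against 2.2%. The members were chosen as known targets of the factors that bind this element, so their larger share is no independent result. Among the 17 members with none were RTS3, SIP18, GRE1, TMA10, HOR7 and MSN4 itself. A match of 5 letters is a description of the sequence and not a measured binding site. The motif counts of single members are used again beside their levels.

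The libraries held an estimated 5555865 to 17928683 reads, with a median of 8736144, and the deposited values sum to between 7278922 and 9979201 normalized reads. Letter C held the deepest library in every group but Ala and Met. Reads were whole numbers, within 0.1 read, in all 40 libraries for 43 members. For TKL2, YAK1 and GRE2 this held in only 7, 8 and 13 libraries, as when reads are shared between gene models, so the values of these 3 members are uncertain.

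A few single libraries stood far from the others of their group. The level of the list in a library is the mean over the 46 members of log2(normalized reads + 1) minus the Ctrl mean, and it lay between -0.14 and 0.14 in the 4 Ctrl libraries. In Gly it was 1.16, 0.19, 1.97 and 0.56 in A, B, C and D, so Gly C and Gly A were high and Gly B lay close to the controls. In Phe it was 0.09, -0.35, 1.54 and -0.18, so Phe C alone was high. Gly C held the highest of the 4 Gly values for 44 of the 46 members, and Phe C the highest Phe value for 44. Over all genes tested these shares were 29.7% and 32%. The main results on Gly are therefore given with all 4 libraries and without Gly A and Gly C, an alternative chosen after the data were seen.

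**Figure D1:**
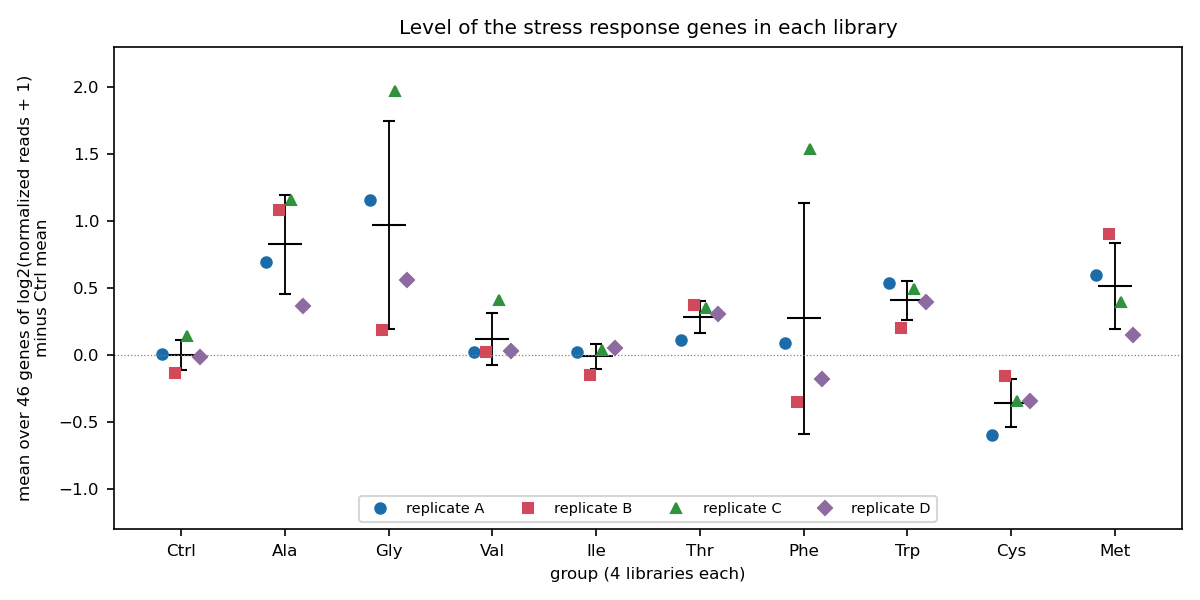
Level of the 46 stress response genes in each of the 40 libraries, as the mean of log2(normalized reads + 1) over the genes minus the Ctrl mean (vertical axis) by group (horizontal axis). Symbols are libraries by batch letter and bars are the group mean ± SD (n = 4). Gly C at 1.97 and Phe C at 1.54 stand highest, all 4 Ala libraries lie above the Ctrl range, and all 4 Cys libraries lie below it.

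Most of the calls fell in Ala and Gly. Each amino acid was compared with Ctrl by limma on log2(normalized reads + 1), with p-values adjusted over all 6103 genes and a threshold of 0.05. For members with few reads, such a difference is smaller than the change of the reads themselves. Of the 46 members, 24 passed in Ala and 24 in Gly, against 1 to 6 in each of the other amino acids. Over all genes, 47.2% passed in Ala and 26.2% in Gly, against 1.92% to 12.3% in each of the others. All genes too thus passed most often in Ala and Gly. Across the 9 comparisons, 62 of the members' 414 differences passed as higher and 7 as lower, against 7.12% and 6.48% of the differences over all genes. They came from 32 members, and the other 14 passed in none. All 9 comparisons share the same 4 Ctrl libraries, so they are not independent of each other.

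**Figure D2:**
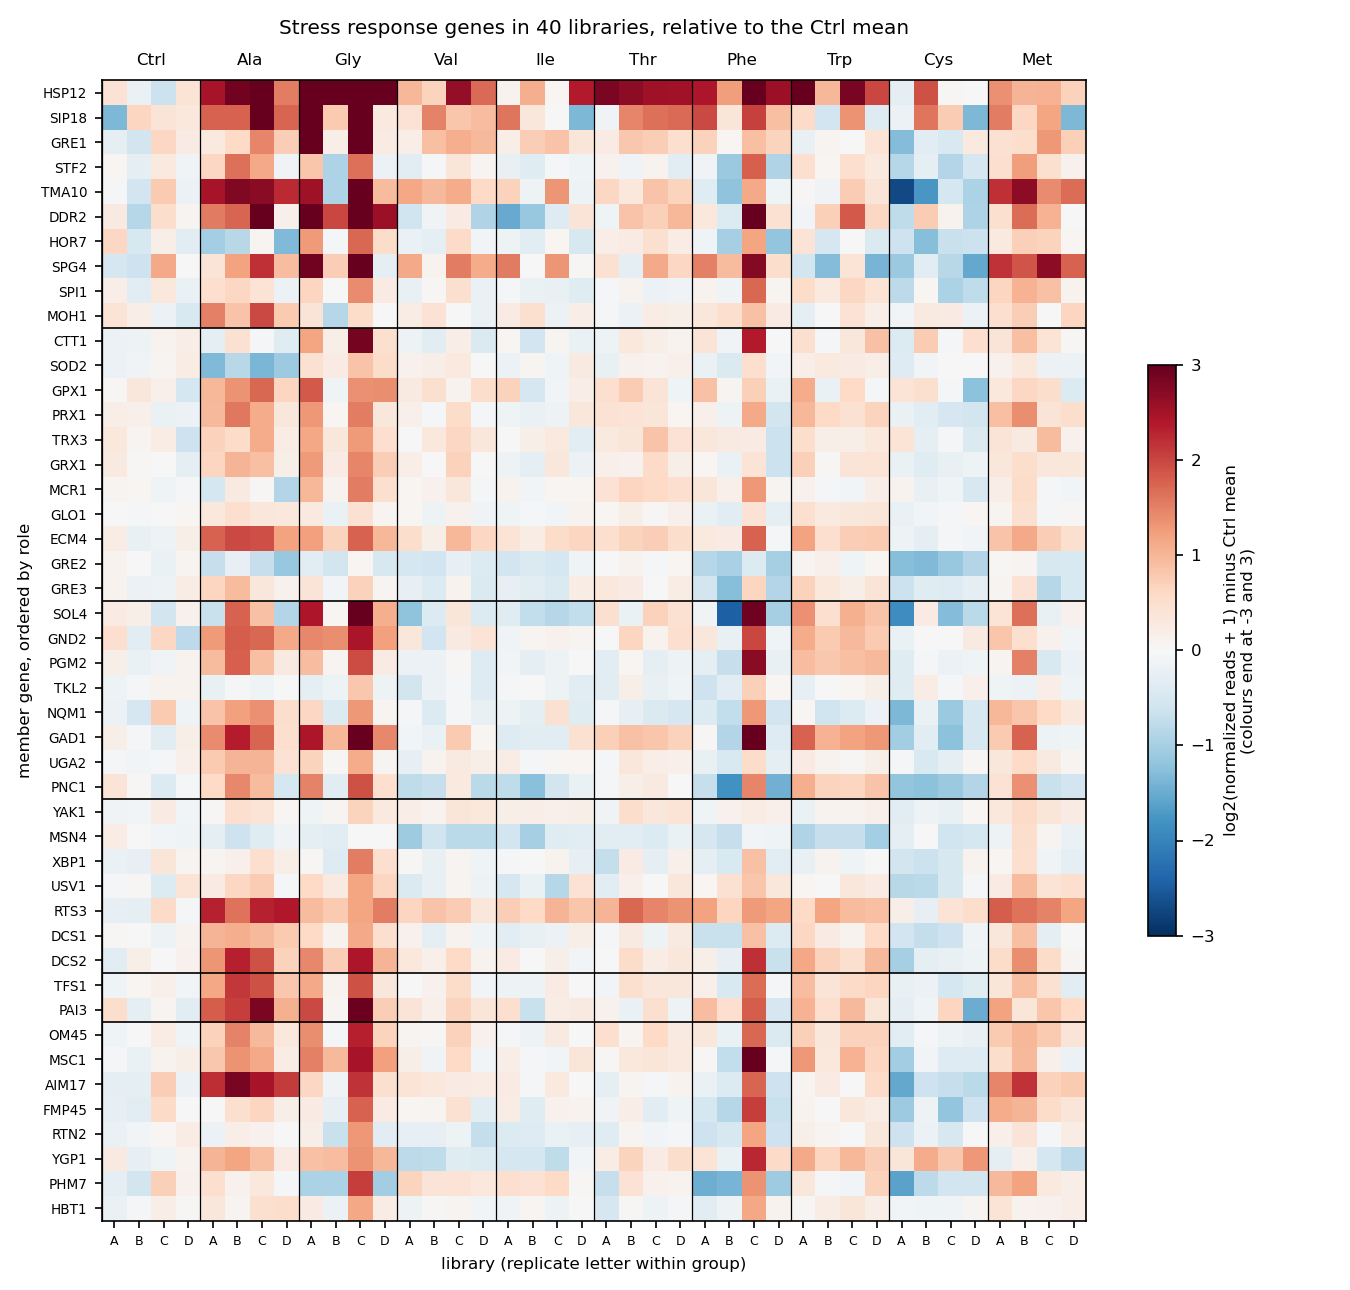
The 46 members (rows, ordered by role, with lines between role groups) in all 40 libraries (columns, by group and batch letter). Colour is log2(normalized reads + 1) minus the Ctrl mean of the gene, and colours end at -3 and 3. HSP12 is dark over most amino acid groups, RTS3 is red in all but Cys, and the columns Gly C and Phe C are red for nearly every member.

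In Ala, 22 members rose and 2 fell, which is 24 of 46 members, against 47.2% of all genes tested. In bulk RNA, a higher level in every cell and one in some of the cells cannot be told apart. Of all genes, 23.1% were called higher and 24.2% lower, so the members' share called was near the background and their direction was mostly upward. Their median log2 difference was 0.82, against -0.01 over all genes, and 39 of the 46 differences were above 0. Of the 46 members, 20 had all 4 Ala libraries above all 4 Ctrl libraries, and 2 had all 4 below. Over all genes each of these shares was 20.2%, so the members' share was larger above and smaller below.

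Among the hydrophilins and small stress proteins, 4 of 10 rose in Ala. HSP12 encodes a small membrane-stabilising heat shock protein. Its normalized reads were 251, 163, 118 and 250.1 in Ctrl A to D and 1042, 1393, 2733 and 542 in Ala A to D. The groups did not overlap, Ala C was highest, and the rise was log2 difference 2.69, SE 0.62, limma adjusted p = 0.00062. TMA10, which encodes a ribosome-associated protein related to the ATPase regulator Stf2, went from 13.4, 8.93, 24.6 and 12.1 in Ctrl to 81.5, 100.4, 96.1 and 68.3 in Ala. The 4 Ala values lay above all Ctrl values (log2 difference 2.55, SE 0.56, limma adjusted p = 0.000349). The hydrophilin gene SIP18 had 0, 2.98, 2.35 and 2.19 normalized reads in Ctrl and 7.77, 7.73, 30.8 and 7.59 in Ala, a handful of reads in most libraries, with Ala C standing apart. Its rise of 2.24 (limma adjusted p = 0.0358) did not pass without Ala C or without Ctrl A. MOH1 rose by 1.29. DDR2, a small protein gene first known from DNA damage, had 41.4, 47.6, 171 and 15.2 in Ala against 16.3, 6.95, 19.9 and 14.3 in Ctrl. Ala D overlapped the controls, and the difference of 1.76 did not pass (limma adjusted p = 0.0519). The hydrophilin gene GRE1 differed by 0.77 and did not pass either.

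The antioxidant genes split in Ala. Of the 11 redox and detoxification genes, 6 rose and 2 fell. ECM4, which encodes an omega class glutathione transferase, went from 125, 90.3, 95 and 119.6 to 365, 421, 412 and 246, with no overlap (log2 difference 1.72, SE 0.25, limma adjusted p = 9.63e-07). GPX1, a glutathione peroxidase gene, rose by 1.18, though not past the threshold without Ala C. PRX1, a mitochondrial peroxiredoxin gene, rose by 1.0, and GRX1, TRX3 and GLO1 rose by 0.68, 0.64 and 0.37. SOD2, which encodes the manganese superoxide dismutase of mitochondria, went the other way. It had 1383, 1449, 1656 and 1814 normalized reads in Ctrl and 629, 877, 602 and 730.5 in Ala. Every Ala library lay below every Ctrl library, and it fell by 1.16 on the log2 scale (SE 0.15, limma adjusted p = 1.64e-07). GRE2, a methylglyoxal reductase gene with uncertain reads, fell by 0.69. CTT1, the cytosolic catalase gene and a standard reporter of this response, had 109, 182, 129 and 102 in Ala against 117, 119, 142 and 152 in Ctrl. These ranges overlapped, and its difference of -0.05 (SE 0.40, limma adjusted p = 0.925) became 0.13 when libraries were rescaled to equal totals.

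Of the 8 genes of carbon and cofactor metabolism, 4 rose in Ala. GAD1, the glutamate decarboxylase gene, had 406, 773, 506 and 213 in Ala against 169, 147, 121 and 169 in Ctrl, with Ala B highest and Ala D nearest the controls (log2 difference 1.51, SE 0.51, limma adjusted p = 0.0152). GND2, the minor 6-phosphogluconate dehydrogenase gene, had 118, 171, 159 and 106 against 68.3, 37.7, 73.9 and 27.4, with no overlap (log2 difference 1.49, SE 0.33, limma adjusted p = 0.000477). UGA2, which acts after Gad1 in the use of GABA, rose by 0.81, and the transaldolase gene NQM1 by 0.99. Of the 7 regulators, 3 rose. RTS3, a gene linked to the phosphatase PP2A, went from 156, 153, 279 and 179 to 923, 572, 929 and 990.3 (log2 difference 2.16, SE 0.20, limma adjusted p = 9.84e-11), with all 4 Ala values above the highest Ctrl value. DCS2 and DCS1, a pair of genes of mRNA cap metabolism, rose by 1.57 and 0.97. MSN4 itself had a difference of -0.35 that did not pass.

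Both protease inhibitor genes rose in Ala. PAI3, whose product blocks the vacuolar proteinase A, went from 16.3, 8.93, 11.7 and 8.78 to 41.4, 50.2, 84.8 and 24.5 (log2 difference 1.95, SE 0.47, limma adjusted p = 0.000954). TFS1, whose product inhibits carboxypeptidase Y, rose by 1.5. Of the 8 genes for membrane, cell wall and mitochondrial proteins, 3 rose. AIM17, a mitochondrial protein gene with 3 copies of the element, went from 153, 154, 310.3 and 166 to 872, 1351, 1036 and 797. All Ala values lay at or above 797 and all Ctrl values at or below 310.3 (log2 difference 2.41, SE 0.38, limma adjusted p = 3.84e-06). OM45, an abundant mitochondrial outer membrane protein gene, rose by 0.87 and YGP1, a cell wall glycoprotein gene, by 0.84.

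Of the 24 calls in Ala, 17 passed whichever single library of Ala or Ctrl was left out. Ala D had the lowest Ala value for 35 of the 46 members, and the count was 29 without it, against 49.9% of all genes. With all libraries rescaled to equal totals the median of all genes in Ala moved to 0.18, and 28 members were called higher and 2 lower. Of all genes 2167 were then called higher and 757 lower, against 1407 and 1474 before. Of 20 ribosome biogenesis genes, 19 were called lower in Ala, against 24.2% of all genes. Their mean level was -0.57, -0.98, -0.87 and -0.27 in Ala A to D relative to the Ctrl mean. Of 10 glucose exhaustion genes, 4 were called higher and 3 lower in Ala, against 23.1% and 24.2% of all genes. The mean level of these 10 was -0.12, 0.14, 0.31 and 0.04 in Ala A to D. The part of growth in the members' rise was not tested.

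In Gly, 24 members rose and none passed as lower (1 at an unadjusted p under 0.05), against 26.2% of all genes tested called in either direction and 14% called higher. The median of the members was 0.81, against -0.02 over all genes, and 43 of 46 differences were above 0. Of the 46 members, 12 had all 4 Gly libraries above all Ctrl libraries, a larger share than the 12.7% of all genes. The other 34 overlapped Ctrl and 0 lay below it, against 11.2% of all genes below. Gly B held the lowest Gly value for 38 of the 46 members. Without Gly A and Gly C, the 2 highest libraries, 3 of the 46 members passed, namely HSP12, RTS3 and GND2. Over all genes 13.2% passed (7.47% higher). The 2 libraries were left out because the members' levels were high in them, so this count cannot be set fairly against all genes. Gly B and Gly D had list levels of 0.19 and 0.56, against at most 0.14 in Ctrl. Without Gly C alone 11 passed, against 19.2% of all genes, and without Gly A alone 14, against 20.1%. When only Gly and Ctrl were fitted, 13 passed, all higher, against 18.6%.

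HSP12 had the largest rise of any member in any comparison with Ctrl. Its normalized reads were 2550.2, 3092, 4201 and 2420.3 in Gly A to D. All 4 values, Gly B included, were above 2420 and far from the Ctrl values (log2 difference 4.0, SE 0.62, limma adjusted p = 7.38e-06). Without Gly A and Gly C the difference was 3.87. Of the 10 hydrophilins and small stress proteins, 6 rose in Gly. DDR2 had 130.0, 57.5, 452 and 85.1 against 16.3, 6.95, 19.9 and 14.3 in Ctrl, again with no overlap (log2 difference 3.18, SE 0.75, limma adjusted p = 0.00166). Without Gly A and Gly C its difference was 2.29 and did not pass (limma adjusted p = 0.0826).

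GRE1 and SIP18 followed the single libraries most. GRE1 had 352, 33.8, 1042 and 35.1 normalized reads in Gly against 23.8, 19.8, 45.8 and 35.1 in Ctrl. Gly A and Gly C were high, and Gly B and Gly D lay within the Ctrl range. Its difference of 2.26 (limma adjusted p = 0.00348) was 0.21 without Gly A and Gly C. SIP18 had 48.1, 3.38, 150.3 and 2.13 in Gly, with the same pair of libraries high, and went from 2.81 (limma adjusted p = 0.0171) to 0.54. SPG4 (1.75) and TMA10 (1.48) were called with all 4 libraries and were at 0.23 and 0.01 without those 2.

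Of the 11 redox and detoxification genes, 8 rose in Gly, among them CTT1 and SOD2, which had not risen in Ala. CTT1 had 302, 150.4, 969 and 185 normalized reads in Gly A to D against 117, 119, 142 and 152 in Ctrl. Gly C stood highest, and Gly B lay inside the Ctrl range (log2 difference 1.18, SE 0.40, limma adjusted p = 0.0283). The catalase difference was 0.34 without Gly A and Gly C. SOD2 had 2133, 1849, 2853 and 2308, all above the highest Ctrl value of 1814 (log2 difference 0.53, SE 0.15, limma adjusted p = 0.0093), and without Gly A and Gly C its difference was 0.40 and did not pass (limma adjusted p = 0.152). ECM4 rose by 1.16, GPX1 by 1.12, and MCR1, the mitochondrial NADH-cytochrome b5 reductase gene, by 0.78. These were 0.83, 0.63 and 0.29 without Gly A and Gly C, and none of the 3 passed (limma adjusted p = 0.055, 0.421 and 0.505).

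The remaining role groups had fewer calls in Gly. Carbon and cofactor genes gave 2 of 8, GAD1 (807, 303, 1286 and 411, a rise of 1.99) and GND2 (131, 128, 267 and 114, a rise of 1.63). GND2 still passed without Gly A and Gly C, at 1.32, and GAD1 did not, at 1.22. Regulators gave 3 of 7, with DCS2 at 1.4, RTS3 at 1.11 and USV1, a zinc finger regulator gene of respiratory growth, at 0.67. RTS3 also still passed without them, at 1.16, and DCS2 at 0.87 and USV1 at 0.45 did not. PAI3 and TFS1 rose by 1.44 and 0.87, but without those libraries were at 0.41 (limma adjusted p = 0.669) and 0.23 (limma adjusted p = 0.75). Membrane, cell wall and mitochondrial genes gave 3 of 8, with MSC1 at 1.55, OM45 at 1.09 and YGP1 at 1.03. These were 1.11, 0.31 and 0.96 without Gly A and Gly C, and none of the 3 passed (limma adjusted p = 0.159, 0.623 and 0.0758).

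The high Gly libraries also differed in growth state genes and depth. The mean level of 10 genes of glucose exhaustion, among them PCK1, MLS1 and ICL1, was 1.09, 0.37, 1.57 and 0.51 in Gly A to D, against -0.10 to 0.15 in Ctrl. Of these 10 genes 6 were called higher in Gly, against 14% of all genes. Ribosome biogenesis genes were at -0.36, 0.04, -0.87 and -0.28, with 5 of 20 called lower, against 12.2% of all genes. Gly C had an estimated 15860193 reads and Gly B 5555865. The part of growth state or depth in the members' rise was not tested.

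Ala and Gly were also compared with each other. The difference itself uses no control library, but its SE and p-value use the spread of all 40 libraries. Of the 46 members, 3 were higher in Ala and 5 lower, against 30.8% of all genes called (15.6% higher, 15.2% lower). When only Ala and Gly were fitted, 3 were higher and 4 lower, against 19.6% of all genes called. The clearest was SOD2, at 629, 877, 602 and 730.5 in Ala and 2133, 1849, 2853 and 2308 in Gly. Every Gly library lay at or above 1849 and every Ala library at or below 877, a log2 difference of -1.68 (SE 0.15, limma adjusted p = 2.67e-11). HOR7, a small membrane protein gene, was lower in Ala by 1.65 on the log2 scale (limma adjusted p = 0.000438), with 322, 369.6, 689.9 and 262 in Ala and 1578, 644, 2171 and 959.6 in Gly. MCR1, GRE1 and CTT1 were lower in Ala by 1.05, 1.49 and 1.24. In the other direction AIM17 was higher in Ala by 1.61, MOH1 by 1.28 and RTS3 by 1.05. MOH1, which belongs to the hydrophilin and small stress protein list, had 110.0, 69.5, 151 and 65.8 in Ala, 49.4, 20.3, 55.4 and 37.2 in Gly and 50.5, 43.7, 33.4 and 27.4 in Ctrl, so Gly lay among the controls.

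Neither HSP12 (-1.3, SE 0.62, limma adjusted p = 0.109) nor DDR2 (-1.43, SE 0.75) nor SIP18 (-0.57, SE 0.88) passed between Ala and Gly. These standard errors are wide, and the values do not show that the genes responded alike. With every library scaled to the same total, the median over all genes became 0.19 and the calls over all genes went from 952 higher and 930 lower to 1945 and 451. The members' split of 3 higher and 5 lower became 6 and 4. Without Gly A and Gly C, 15 of 46 members differed, 13 of them higher in Ala. Over all genes 33.7% were then called (16.8% higher, 16.9% lower). Those libraries were left out because the members' levels were high in them, so this count cannot be set fairly against all genes. GRE1 turned from -1.49 to 0.55 without Gly A and Gly C. SOD2, HOR7, MCR1, MOH1, AIM17 and RTS3 passed whichever single library was left out.

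**Figure D3:**
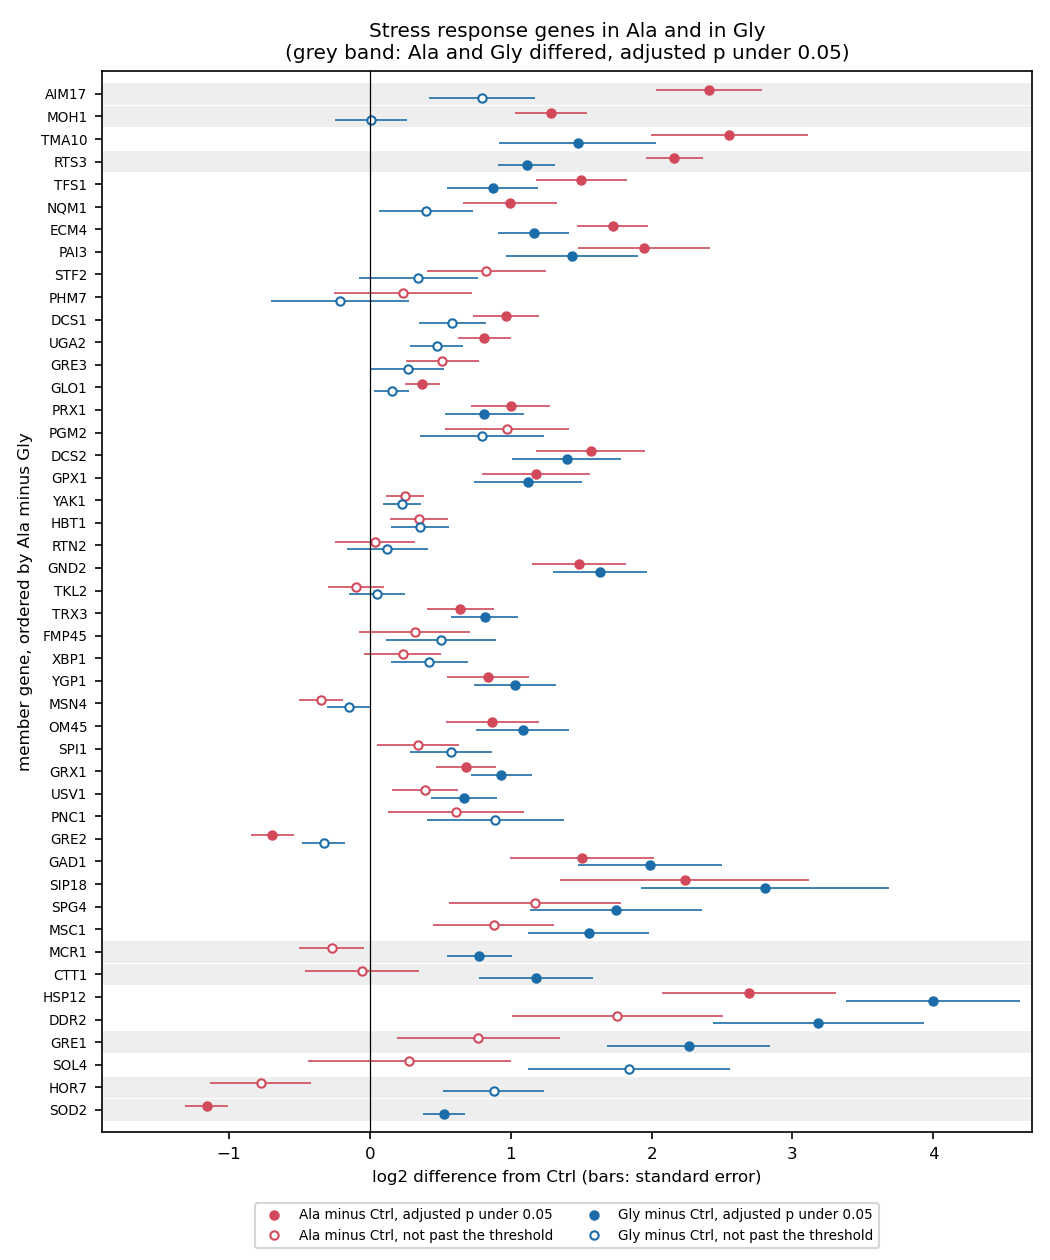
Log2 difference from Ctrl of each of the 46 members in Ala (red) and Gly (blue), with bars for the standard error of the fit, ordered by Ala minus Gly. Filled points passed the threshold, and grey bands mark the 8 members that differed between Ala and Gly. SOD2 at the bottom lies at -1.16 in Ala and 0.53 in Gly, and AIM17 at the top at 2.41 and 0.80.

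RTS3 was the member called most often. It rose in 8 of the 9 amino acids, all but Cys, and the mean of the 9 was 1.10 above Ctrl (limma adjusted p = 3.52e-06). Normalized reads were 655, 577, 526 and 424 in Met A to D and 378, 620.1, 517 and 471 in Thr, with differences of 1.53 and 1.39. Phe had 427, 289, 455 and 425 (1.08), Gly 359, 319.5, 426 and 539 (1.11) and Trp 281, 424, 362 and 349 (0.91). In these groups and in Ala every library lay above every Ctrl library. The smallest rises were in Ile, with 312, 283, 379 and 329.7 (0.80, limma adjusted p = 0.0239), and in Val, with 293, 339, 316 and 237 (0.66, limma adjusted p = 0.0483). Both of these calls were lost when any of 6 single libraries was left out, and Val overlapped Ctrl through Ctrl C, the highest control at 279. Cys had 209, 156, 247 and 269, within the spread of Ctrl (0.21). The RTS3 window holds no copy of the element, though 63.0% of member windows do.

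HSP12 came next, with rises in Ala, Gly, Thr, Phe and Trp. The 4 Thr libraries had 1330.3, 1198, 1098 and 1079.9, the smallest SD of the 5 groups that passed (log2 difference 2.65, SE 0.62, limma adjusted p = 0.0034). Phe had 1014, 448, 7353 and 1106, with Phe C far above the rest (log2 difference 2.89, SE 0.62, limma adjusted p = 0.00194), and without Phe C the difference was 2.09 and still passed. Trp had 2996, 372, 1352 and 747, with Trp A highest (log2 difference 2.46, SE 0.62, limma adjusted p = 0.00674), and that call was lost without Trp A. Val had 371, 298, 1157 and 604 and Met 487, 381, 386 and 304. Both lay above all 4 Ctrl libraries, yet the differences of 1.49 and 1.04 did not pass. Ile had 202, 398, 194 and 974 and Cys 154, 708, 192 and 185, and both overlapped Ctrl. In order of the mean, the groups ran from Gly (3066 ± 811, SD, n = 4) through Phe (2480 ± 3261), Ala (1428 ± 938), Trp (1367 ± 1159) and Thr (1176 ± 115) to Val, Ile, Met, Cys and Ctrl (196 ± 66.0). Every pair of neighbours in this order overlapped.

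**Figure D4:**
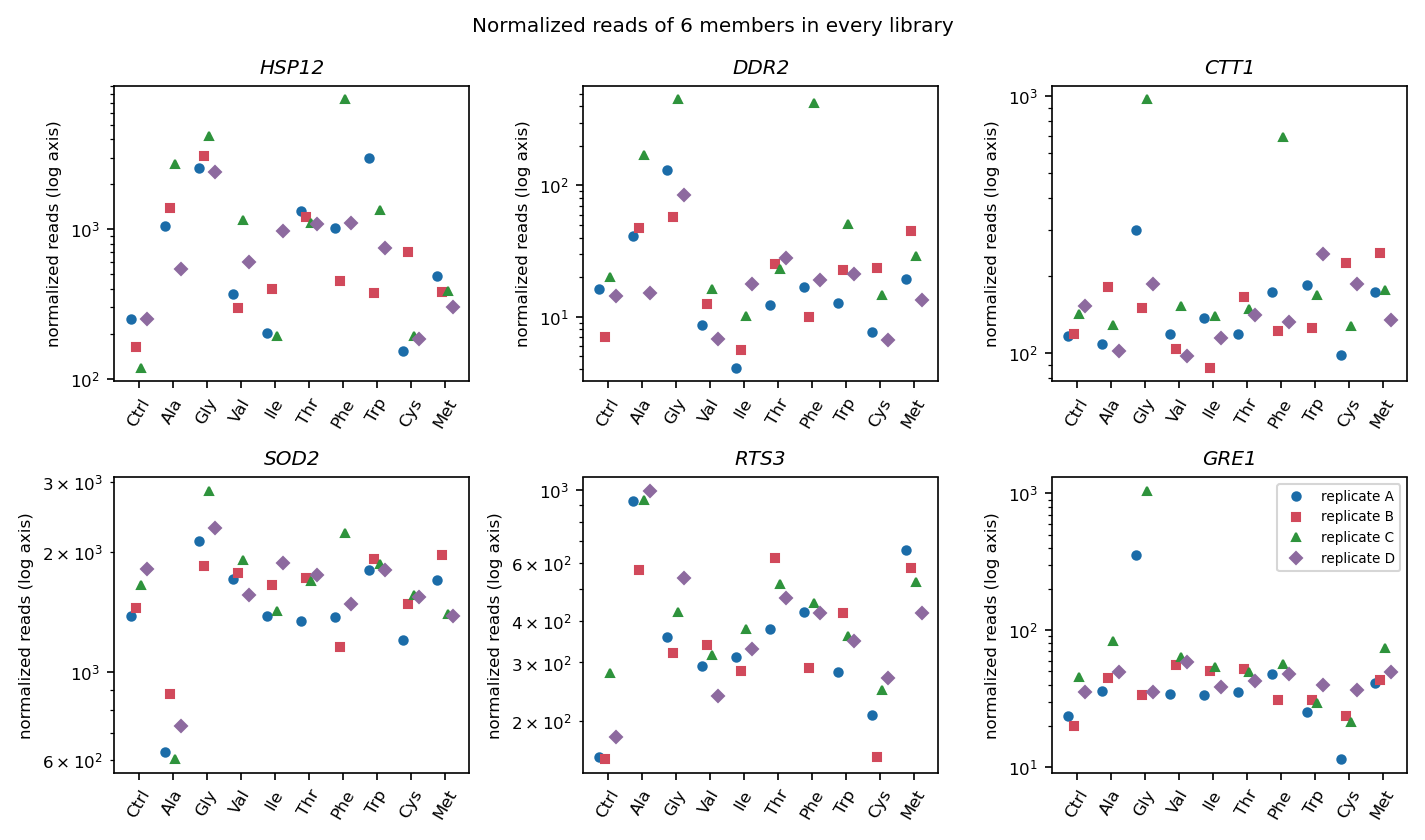
Normalized reads (log axis) of HSP12, DDR2, CTT1, SOD2, RTS3 and GRE1 in all 40 libraries, by group, with symbols for the batch letter. HSP12 reached 7353 in Phe C and lay above 2420 in all Gly libraries, SOD2 was lowest in the 4 Ala libraries, and the highest values of CTT1 and GRE1 were those of Gly A, Gly C or Phe C.

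The other members followed in all groups, DDR2, CTT1, SOD2, GRE1 and SIP18, passed in few of them. DDR2 in the remaining groups ranged from 4.07 in Ile A to 50.8 in Trp C, apart from Phe, where the libraries had 16.9, 9.96, 426 and 18.9. Phe C alone stood out, and the Phe difference of 1.31 did not pass. CTT1 had 173, 123, 693 and 132 in Phe, with the same pattern (0.67, limma adjusted p = 0.481). Outside Gly and Phe C, its values lay between 87.8 in Ile B and 246 in Met B, and no other group passed. SOD2 outside Ala and Gly differed from Ctrl by no more than 0.24, the value in Trp (1802, 1921, 1871 and 1805, limma adjusted p = 0.324). GRE1 outside Gly had differences from -0.44 in Cys to 0.79 in Val, and its highest value was 83.3 in Ala C. SIP18 outside Ala and Gly never had more than 9.54 normalized reads, the value in Phe C, and was at 0 in Ctrl A, Ile D, Cys D and Met D.

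In Thr, 2 members rose and none passed as lower, also not at an unadjusted p under 0.05, against 11.2% of all genes called (5.87% higher, 5.33% lower). They were HSP12 and RTS3, and both passed whichever single library was left out. When only Thr and Ctrl were fitted, 7 members passed, 6 higher and 1 lower, against 15.3% of all genes. All 4 Thr libraries lay above all Ctrl libraries for 5 members, against 10.6% of all genes, and below them for 1, against 10.4%. In Phe, 2 rose and 1 fell, against 5.6% of all genes (3.7% higher, 1.9% lower). HSP12 and RTS3 rose, and GRE2 fell by 0.80 (limma adjusted p = 0.000429). The 4 Phe libraries lay above all Ctrl libraries for 2 members, against 5.77% of all genes, and below them for 1, against 3.77%. The median of the members in Phe was 0.17, although Phe C had 30 members over 2-fold above the Ctrl mean. Phe A, Phe B and Phe D had 4, 1 and 2. For GAD1, for example, the Phe values were 155, 81.2, 1189.8 and 116, with Phe C high and the others within or below the Ctrl range of 121 to 169. In Phe C the ribosome biogenesis genes were at -0.46 and the glucose exhaustion genes at 0.60, against 0.05, 0.24 and 0.19, and 0.09, 0.10 and 0.14, in A, B and D. Their part in the level of Phe C was not tested.

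In Trp, 5 members rose and 1 fell, against 12.3% of all genes (6.32% higher, 6% lower). HSP12, RTS3, YGP1 (0.88), ECM4 (0.81) and the glyoxalase gene GLO1 (0.37) rose. MSN4 fell by 0.83. The Trp libraries lay close together, with list levels from 0.20 to 0.54, and 15 members had all 4 Trp libraries above all Ctrl libraries, against 12% of all genes, while 1 had them all below, against 12.7%. Among these were YGP1, with 2677, 1908, 2428 and 2053 against 1466, 1028, 1123 and 1318 in Ctrl, and GND2, with 104, 82.8, 94.8 and 83.1 against 68.3, 37.7, 73.9 and 27.4. The calls used 1 spread from all 10 groups. When only Trp and Ctrl were fitted, 19 members passed instead of 6, against 21.5% of all genes instead of 12.3%. The YGP1 call was lost by leaving out any of 7 libraries and the GLO1 call by leaving out any of 8, and 2 calls were made without Trp A, against 7.62% of all genes.

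In Met, 5 members rose and none passed as lower, also not at an unadjusted p under 0.05, against 9.8% of all genes (6.06% higher). SPG4, a gene needed to survive heat in stationary phase, had 33.3, 27.4, 47.9 and 25.1 in Met against 4.45, 3.97, 15.8 and 6.58 in Ctrl, with no overlap (log2 difference 2.12, SE 0.61, limma adjusted p = 0.0214). TMA10 had 66.7, 93.8, 38.4 and 46.3 (log2 difference 1.99, SE 0.56, limma adjusted p = 0.0178) and AIM17 519, 847, 303 and 322 (log2 difference 1.28, SE 0.38, limma adjusted p = 0.0249), the latter overlapping Ctrl through Ctrl C. RTS3 and ECM4 (0.80) were the others. The direction was shared by most members, since 42 of 46 differences were above 0, with a median of 0.43. Met B had the highest Met value for 34 members, and ribosome biogenesis genes in Met A to D were at -0.34, -0.78, -0.03 and -0.20. For 8 members the 4 Met libraries lay above all Ctrl libraries, against 9.29% of all genes, and for none below, against 8.75%. Only RTS3 passed whichever library was left out, and 1 call was made without Ctrl B, against 7.62% of all genes. When only Met and Ctrl were fitted, 8 rose, against 9.41% of all genes called.

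In Val, 1 member rose (RTS3) and 1 fell, against 5.39% of all genes called (2.51% higher, 2.88% lower). In Ile the same pair was called, against 1.92% of all genes (1.26% higher, 0.655% lower). The member that fell was MSN4, which encodes one of the activators. It had 349, 486, 418 and 419.5 in Val, 490.5, 368, 566 and 576 in Ile and 387, 448, 454 and 360.4 in Trp, against 847, 722, 694 and 667 in Ctrl. All 4 Val, Ile and Trp libraries lay below all Ctrl libraries. The differences were -0.81 in Val (limma adjusted p = 0.000782), -0.57 in Ile (limma adjusted p = 0.0493) and -0.83 in Trp (limma adjusted p = 0.000353). The Ile call was lost by leaving out any of 6 libraries, and the Val and Trp calls by leaving out none. Met differed by 0.06. In Val, 1 member had all libraries above and 3 had all below those of Ctrl, against 6.98% and 9.08% of all genes. In Ile these counts were 1 and 1, against 3.97% and 4.33%. When only Val and Ctrl were fitted, 2 rose and 3 fell, against 8.09% of all genes called. The list as a whole was near the controls in Val (median 0.11) and Ile (median -0.02). Val C was higher, at a list level of 0.41 against 0.02 to 0.03 in the other 3 libraries.

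In Cys, no member passed as higher in limma (1 at an unadjusted p under 0.05) and 1 fell, against 2.83% of all genes called (1.29% higher, 1.54% lower). That was GRE2, whose normalized reads were 461, 444, 509 and 604 in Cys and 1195, 1124, 981 and 1187 in Ctrl (log2 difference -1.16, SE 0.15, limma adjusted p = 3e-06). Its reads were whole in only 13 of the 40 libraries, so this value is uncertain. The list lay low in Cys: 39 of 46 differences were below 0, with a median of -0.32, and the library levels were -0.60, -0.16, -0.34 and -0.34. When only Cys and Ctrl were fitted, 1 rose and 2 fell, against 1.29% of all genes called. For 9 members all 4 Cys libraries lay below all Ctrl libraries, against 4.75% of all genes, and for 1 above them, against 3.64%. Among them was PNC1, the nicotinamidase gene, with 245, 238, 259.7 and 308 in Cys against 736, 580.4, 423 and 552 in Ctrl, and GAD1, with 72.1, 120.0, 63.3 and 108 against 169, 147, 121 and 169. Their differences of -1.10 and -0.77 did not pass (limma adjusted p = 0.296 and 0.557). YGP1 went the other way, with 1582, 2637, 2139.9 and 2999.6 against 1466, 1028, 1123 and 1318, above Ctrl in every library but not past the threshold (0.90, limma adjusted p = 0.0959). Ribosome biogenesis genes in Cys had a median difference of 0.22, with 20 of 20 above 0, of which 1 had an unadjusted p under 0.05 and none passed in limma.

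Averaged over the 9 amino acids, 3 members were higher than Ctrl and 2 lower, against 9.03% of all genes called (5.15% higher, 3.88% lower). HSP12 was higher by 2.06 (SE 0.46, limma adjusted p = 0.00275), RTS3 by 1.10 and ECM4 by 0.73. GRE2 was lower by 0.44 and MSN4 by 0.41. The next largest differences, which did not pass, were SIP18 (1.06), DDR2 (0.80), SPG4 (0.78), TMA10 (0.74), GRE1 (0.65), GAD1 (0.65) and PAI3 (0.64). Only the HSP12 and RTS3 calls passed whichever of the 40 libraries was left out. CTT1 and SOD2 differed by 0.29 and -0.04.

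The 14 members called in none of the 9 comparisons were STF2, HOR7, SPI1, GRE3, SOL4, PGM2, TKL2, PNC1, YAK1, XBP1, FMP45, RTN2, PHM7 and HBT1. Several of them moved widely between libraries. SOL4, a 6-phosphogluconolactonase gene, ranged from 3.07 in Phe B to 303 in Gly C, with 25.2, 23.8, 14.1 and 23 in Ctrl. PGM2, the major phosphoglucomutase gene, had 254, 192, 2034 and 265 in Phe and 584, 324, 1205 and 364 in Gly against 350.3, 269.9, 289 and 334 in Ctrl. PNC1 had 1584, 441, 2127 and 794 in Gly, with Gly B below the other 3. YAK1, the kinase gene whose product acts upstream of Msn2 and Msn4, stayed between 471 and 938 normalized reads in all 40 libraries, though its window holds 3 copies of the element.

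The spread of a gene between libraries of 1 group was taken as the residual SD of the fit on the log2 scale. The members had a median SD of 0.495 (0.180 to 1.27), against a median of 0.192 over all genes tested, and 45 of the 46 lay above that median. Without Phe C the members' median was 0.398. SIP18 (1.27), DDR2 (1.13), SOL4 (1.08) and HSP12 (0.945) had the largest SD, and GLO1 (0.180), YAK1 (0.198), SOD2 (0.224) and GRE2 (0.225) the smallest. SIP18 had a median of 4 estimated reads per library, so counting error adds to its spread, whereas HSP12 had a mean log2 level of 9.41. Among the members with a small SD, differences as small as that of GLO1 in Ala passed.

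**Figure D5:**
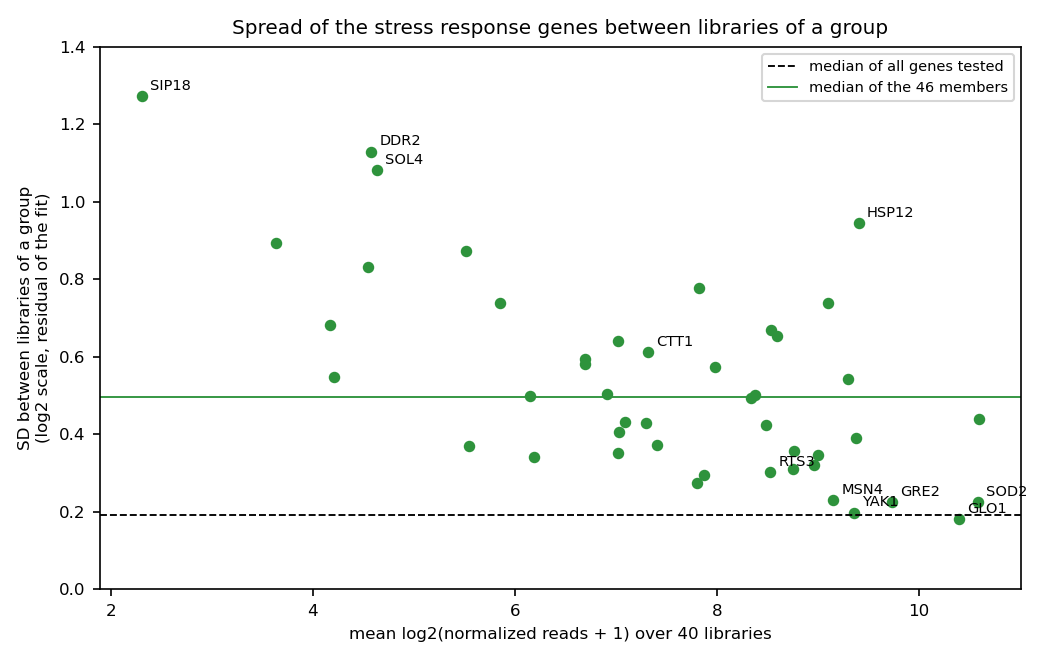
Residual SD between libraries of a group (vertical axis, log2 scale) against the mean log2(normalized reads + 1) over 40 libraries (horizontal axis) for the 46 members. The green line is the median of the members (0.495) and the dashed line that of all 6103 genes tested (0.192), and only GLO1 lies below the dashed line.

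Members with and without the element in the window of 250 bases before to 50 after the start were set side by side. Of the 29 with a copy, 16 rose and 1 fell in Ala, with a median of 0.88, and 16 rose in Gly, with a median of 0.87. Of the 17 without, 6 rose and 1 fell in Ala (median 0.39) and 8 rose in Gly (median 0.67). The ranges of the sets overlapped nearly throughout, from -1.16 to 2.69 with a copy and from -0.77 to 2.55 without one in Ala. With 500 bases before the start, 40 of 46 members (87.0%) and 34.1% of all genes held a copy, so some members lacking one here have it farther upstream.

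Other targets of Msn2 and Msn4, a list of 22 genes outside the 46, also had most of their calls in Ala and Gly. In Ala 11 rose (50%), against 23.1% of all genes. Among them were HSP26 at 2.55, the mitochondrial chaperone gene HSP78 at 2.40 and the hexokinase gene HXK1 at 2.33. In Gly 9 rose (40.9%), against 14% of all genes, with HSP26 at 3.21 and HXK1 at 2.57. The mean level of the 22 in Gly A to D was 1.14, 0.07, 2.05 and 0.58. Met had 3 called, all higher (13.6%, against 6.06% of all genes), and Trp 1 (4.55%, against 6.32%). In limma none passed in Val, Ile, Thr, Phe and Cys, where 0, 0, 3, 3 and 4 of the 22 had an unadjusted p under 0.05. In single libraries their mean level was 2.05 in Gly C, 1.58 in Phe C, 1.58 in Ala B and -0.77 in Cys A, so the same libraries stood high or low as for the members.

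Among 30 genes for regulators of Msn2 and Msn4, most differences were small. In Ala 2 rose and 10 fell, against 23.1% and 24.2% of all genes, and in Gly 4 rose and 10 fell, against 14% and 12.2%. In Val 5 fell, against 2.88% of all genes, and in Trp 5 fell, against 6%. In Thr 1 rose and 3 fell, against 5.87% and 5.33%, and in Met 2 rose and 3 fell, against 6.06% and 3.74%. RAS1, a gene of the pathway to protein kinase A, fell by 1.09 in Ala and 0.49 in Gly. PDE2, the high-affinity cAMP phosphodiesterase gene, fell by 0.62 in Ala, 0.91 in Val, 0.74 in Thr and 0.89 in Trp. MSN2 fell by 0.43 in Gly, and PSR1, a plasma membrane phosphatase gene that acts with Whi2, by 0.89 in Ala. In Ile, Phe and Cys none of the 30 passed in limma, and 2, 1 and 3 had an unadjusted p under 0.05.

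A list of 13 genes holds paralogs of members and genes that share their activity. In Ala 1 rose and 3 fell, against 23.1% of all genes higher and 24.2% lower, and in Gly 3 rose and 1 fell, against 14% and 12.2%. In Trp 4 rose, against 6.32% of all genes, in Thr 3 rose and 2 fell, against 5.87% and 5.33%, and in Val 2 rose, against 2.51%. In Phe 1 rose and 4 fell, against 3.7% and 1.9%. In Ile 1 rose, against 1.26%, and in Met 1 rose, against 6.06%. In Cys none passed in limma, and 5 had an unadjusted p under 0.05. GND1, TAL1 and GRX2, the counterparts of GND2, NQM1 and GRX1, were not called in either group. SED1, a cell wall protein gene and counterpart of SPI1, fell by 0.71 in Ala and rose by 0.77 in Gly. SOD1, the copper-zinc superoxide dismutase gene, rose by 0.56 in Gly and differed by -0.17 in Ala. YNL194C, a plasma membrane protein gene paralogous to FMP45, rose in 8 of the 9 amino acids, all but Cys, from 0.55 in Thr to 1.24 in Met, while FMP45 itself was not called.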

How the data were processed

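Poly(A) RNA of 40 yeast libraries (300 ng of total RNA each, a directional kit, per the labels' protocols) was sequenced. The submitters' processing notes name STAR 2.7.8a and Partek without a role. No source used here gives the genome build, annotation or strand setting. What the authors deposited is 1 table with a signal for each gene in each library: read counts after a normalization of theirs. Each library had been divided by a factor whose origin is not given: 88.81 to 90.93% of its values came out as whole reads (tolerance 0.1 read) at the smallest common step, from which depth was estimated. The rest were fractional, so no count test was run. All 40 columns were matched to samples by name, and 4 emptied lines were not used. Symbols came from the table, with 811 filled in from the R64 gene table.

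Tests were made by limma 3.58.1 (R 4.3.3) on log2(value + 1): 1 mean per group over all 40 libraries, trended prior variance, genes with a mean of at least 5, and Benjamini-Hochberg adjustment over 6103 genes at 0.05. The same steps were tested on simulated data. Batches are labelled by the letters A to D, so libraries of different groups are paired by letter. The mean correlation of deviations from the group mean was 0.174 for libraries of 1 letter and -0.0576 for others, and 29 of 40 libraries correlated best with their own letter. Intervals of shares are exact (Clopper-Pearson) and cover counting error only.

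The members and the gene lists were chosen with earlier results of these data known. Named with values in each comparison are HSP12, CTT1, SOD2, DDR2, GRE1 and SIP18, the 8 members past the threshold with the largest difference, members that moved against the majority called (up to 4), the 2 largest per role list, the 10 largest for the mean of the 9, and 4 each of the largest and smallest SD. Members named beyond this rule were chosen after their values were seen. Results were recomputed with pseudocounts of 0.25 and 4, without the filter, after rescaling to equal totals or by median ratios, with the letter as a replicate block, with only the groups compared, with each library left out, and for other promoter windows. The values without Gly A, Gly C or Phe C together and the window of 500 bases were added after the data were seen. Start positions and windows were read from the RefSeq R64 genome, with AGGGG and CCCCT searched on both strands.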

Additional observations from a re-analysis of the deposited data

Results flagged for a closer look

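Within groups of 4 libraries, a value was picked out when its gap to the nearest library, divided by the range of the group, exceeded Dixon's 95% critical value. For normally distributed values, chance alone picks out about 1 in 20 groups. For single members the values were normalized reads without logarithms, and the members share libraries. The counts that follow can therefore not be set against 1 in 20. Over 46 members and 10 groups, 49 of 460 sets of 4 were picked out, and 24 of these were Phe C standing highest. For the level of the whole list the ratio was 0.988 in Val, where Val C stood highest, and 0.848 in Ile, where Ile B stood lowest.

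Among the 6 members followed in every group, 3 were picked out for Phe C: HSP12 with a ratio of 0.905, DDR2 with 0.979 and CTT1 with 0.911. HSP12 in Cys had a ratio of 0.931, with Cys B highest. SIP18 in Ala had 0.993, with Ala C highest, and SOD2 in Thr had 0.856, with Thr A lowest.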

How the results depend on the processing

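The deposited factors set every level, and the spread between libraries of a group limits what could pass. Counts of members called differed by less than 1.5 times from those given under both pseudocounts and under rescaling by the median of ratios. With the letter as a replicate block, 27 members were called in Ala, 27 in Gly, 7 in Trp, 7 in Met, 4 in Phe and 8 in Ala against Gly, and none of the 82 calls made without it was lost. Calls over all genes rose too, in Ala from 1407 higher and 1474 lower to 1530 and 1673. In Gly they rose from 855 and 742 to 1001 and 911. With the block they were 509 and 501 in Trp, 483 and 405 in Met and 271 and 164 in Phe. In Ala against Gly they were 1086 and 1107. Fitting only the groups compared gave 13 in Gly, 5 in Val, 7 in Thr, 19 in Trp, 3 in Cys and 8 in Met, with a spread from 8 libraries. Of all genes 18.6%, 8.09%, 15.3%, 21.5%, 1.29% and 9.41% were then called, in the same order. Without the filter, Val and Ile had 1 each, and with equal totals Val had 1 (lower). Over all genes, 149 were higher and 175 lower in Val without the filter, and 79 and 39 in Ile. With equal totals 114 were higher and 283 lower in Val. Without Gly A and Gly C together, 3 were called in Gly and 15 in Ala against Gly, and without these and Phe C the mean of the 9 had 3 higher and 2 lower. Of all genes 13.2%, 33.7% and 9.18% were then called. These libraries were left out after the members were seen to be high in them, so the counts cannot be set fairly against all genes. The cause of these shifts was not tested.

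With single libraries left out, counts ran from 20 to 29 in Ala, 11 to 30 in Gly, 1 to 2 in Val, 0 to 1 in Ile, 2 to 3 in Thr, 3 to 4 in Phe, 2 to 5 in Trp, 1 to 5 in Met, 3 to 5 for the mean of the 9 and 7 to 12 in Ala against Gly, and stayed at 1 in Cys. Shares of all genes called ran from 40.3 to 49.9% in Ala, 19.2 to 30.3% in Gly and 3.34 to 5.75% in Val. They ran from 1.38 to 2.24% in Ile, 7.77 to 9.42% in Thr and 4.34 to 5.49% in Phe. In Trp they ran from 7.62 to 11.2%, in Cys from 1.69 to 2.87% and in Met from 6.78 to 8.82%. For the mean of the 9 they ran from 5.23 to 10.2%, and in Ala against Gly from 25.7 to 33.3%. The members' median SD ran from 0.398 (without Phe C) to 0.504.

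Differences of single members were recomputed only for those called in a comparison and for HSP12, CTT1, SOD2, DDR2, GRE1 and SIP18. The signs of the other uncalled differences were not followed. No called difference changed sign with 1 library left out. Signs changed for these differences, none of them called: CTT1 in Ala (-0.23 to 0.049, and 0.13 with equal totals), SOD2 in Ile (-0.081 to 0.076, and -0.023 with equal totals), in Thr (-0.012 to 0.14), in Phe (-0.24 to 0.081), in Met (-0.075 to 0.10) and in the mean of the 9 (-0.10 to 0.033), SIP18 in Ile (-0.34 to 0.64), in Trp (-0.21 to 0.52) and in Cys (-0.25 to 0.73), GRE1 in Trp (-0.12 to 0.27), HSP12 in Cys (-0.081 to 0.65), DDR2 in Cys (-0.52 to 0.042) and SIP18 in Ala against Gly (-1.41 to 0.46). Without Gly A and Gly C, SIP18 in Ala against Gly was 1.70 and the called GRE1 difference turned to 0.55. The share of members with the element was 63.0% in the 250 bases before the start codon and 87.0% in the 500 bases before it.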
